A study of Mus musculus with 9 samples.

Results

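The potassium channel genes of the mouse prefrontal cortex (PFC) were followed here, taken as all protein-coding genes whose symbol begins with Kcn, other than Kcnj8 and Kcnj10, which belong to blood vessels and astrocytes. The rule gave 92 of the 56246 gene lines in the count table, and 77 of them passed the filter on low counts, as did 17948 genes in all. RNA of PFC tissue was sequenced in 9 libraries, 3 to a group. The libraries labelled Rag1-/- + WT EVs came from mice labelled as Rag1 knockouts that had received extracellular vesicles (EVs) from the blood of wild-type mice, those labelled Rag1-/- + vehicle came from Rag1-/- mice given the carrier medium, and WT libraries came from wild-type mice. Rag1 encodes an enzyme that cuts antigen receptor genes, and loss of its function leaves mice with no mature T or B cells. All mice of the study were on a C57BL/6 background and were adult males unless stated otherwise, and brains were rinsed of blood with saline. For the WT mice the sources differ: their treatment label reads None, while their sample titles carry the same abbreviation for medium as the vehicle group and the study's supplement describes them as injected with medium. Nothing in the labels says that each library is a separate mouse, so the p-values measure the spread between these libraries.

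Potassium channels let potassium leave the cell, which ends the action potential, sets the interval to the next one and holds the resting potential. Voltage-gated channels (Kv) are built of 4 pore subunits, often with cytoplasmic or membrane-bound auxiliary subunits that alter gating and transport. Inward rectifiers (Kir) and tandem-pore channels (K2P) act near rest, and a further group opens with intracellular calcium or sodium. In cortex, Kv1 channels sit mainly on axons, Kv2 channels on the soma and proximal dendrites, Kv4 channels on dendrites, and Kv3 channels in fast-spiking interneurons among other cells.

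Of the microRNAs carried in blood vesicles, the study followed miR-103-3p and miR-23a-3p, and their sequences are shown so that matches to their seeds can be set beside the genes that differed between vesicle- and vehicle-injected mice. Bases 2 to 8, the seed, are in capitals, and the sequences are those of RefSeq on GRCm38.p6. The miR-23a-3p sequence lies at chr8:84208563-84208583 on the plus strand, and miR-103-3p is encoded at both chr2:131288103-131288125 and chr11:35782447-35782469.
miR-23a-3p: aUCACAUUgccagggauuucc
miR-103-3p: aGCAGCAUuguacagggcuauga

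A 7-base match to the miR-23a-3p seed (AATGTGA) was found in the longest annotated 3′ untranslated region of 18 of the 77 tested Kcn genes (23.4%), against 17.7% of the 14436 tested genes with such a region. For miR-103-3p (ATGCTGC) the figures were 15 Kcn genes (19.5%) and 15% of tested genes. The tested Kcn genes had a longer 3′ untranslated region, with a median of 1777 bases, against 1380 bases over all these genes. Of the 5 Kcn genes lower in vesicle- than in vehicle-injected mice, 1 held a match for miR-23a-3p and 1 a match for miR-103-3p (20% each), a count too small to read against those shares. The miR-23a-3p sites of Kcnd3 and Kcnt2, which differed in opposite directions, are printed below on the strand of the transcript, with the seed match in capitals, from the GENCODE M21 transcripts (GRCm38). Each lies within 1 exon, downstream of the coding sequence.
Kcnd3, miR-23a-3p, chr3:105673832-105673854: tgcaggaagacaAATGTGAaaac
Kcnt2, miR-23a-3p, chr1:140609869-140609891: attttgaaacttAATGTGAtatt
Kcnt2, miR-23a-3p, chr1:140610511-140610533: acagcttatttgAATGTGAgaat
A match is a string of letters and was not tested as a binding site. Kcnd3 was lower and Kcnt2 was higher in vesicle-injected than in vehicle-injected Rag1-/- mice, as given with their values below.

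Depth ranged from 32 to 41.2 M reads assigned to genes per library. WT replicate 6 stood apart, with 30.1% of its reads outside exons, against 6.54 to 11.2% in the other 8 libraries, and with 21389 genes at 10 reads or more, against 16326 to 17662. By group, the share outside exons was 6.54 to 6.9% in vehicle, 7.73 to 11.2% in vesicle and 8.11 to 30.1% in WT libraries. The vehicle libraries were thus the lowest and did not overlap the others. A fit with this share as a covariate is given below, and its part in the Kcn values was not otherwise tested. WT replicate 6 had the lowest value of the WT libraries in 49 of the 77 tested Kcn genes, so results against WT are also given without it. Replicate 1 of the vehicle group had the highest value of its group in 44 of the 77. Rag1 itself was at 6.26 to 7.32 CPM in libraries labelled Rag1-/- + WT EVs and 6.85 to 7.82 CPM in those labelled Rag1-/- + vehicle, against 0.232 to 1.09 CPM in WT libraries. CPM are reads of a gene scaled to the size of the library. Reads over the whole Rag1 gene were thus more frequent in libraries labelled Rag1-/-, which goes against a reading of the labels as loss of the transcript. Which part of the gene the reads fall on was not tested, and every direction below rests on the labels as given.

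The most abundant Kcn messages, compared per length as TPM (counts scaled by transcript length and then by library, mean ± SD of 9 libraries), were those of an auxiliary subunit and of neuronal pore subunits. Kcnab2, the Kv beta subunit that binds Kv1 channels and helps to carry them to the axon, led with 260 ± 32.5 TPM. Kcnj4, an inward rectifier of the forebrain (Kir2.3), followed with 158 ± 31.6 TPM. Kcna2 (Kv1.2), an axonal channel, had 108 ± 31.6 TPM and Kcnh3, a channel of the ELK family, had 104 ± 13.4 TPM. Kcna2 and Kcnh3 differ by less than their SD, whereas Kcnab2 lies beyond the spread of the others.

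In further classes the leading member was Kcnv1 among silent subunits (93.7 ± 19.3 TPM), Kcnk1 among K2P channels (76.8 ± 13.7 TPM), Kcnma1, the large-conductance calcium-activated channel (76.1 ± 17.8 TPM), Kcnd2 in the Kv4 family (65.1 ± 16.4 TPM) and Kcnc4 in the Kv3 family (56.9 ± 6.64 TPM). Kcnq3 of the Kv7 family was at 64.3 ± 16.1 TPM. Kcnt2, a sodium-activated channel, was at 74.6 ± 17 TPM, next to Kcnma1. The Kv3 genes Kcnc4, Kcnc2 and Kcnc1 lay between 51.8 and 56.9 TPM. In the Kv4 family, by contrast, Kcnd2 was followed by Kcnd3 with 20.4 ± 5.24 TPM and Kcnd1 with 5.36 ± 1.24 TPM. Of the 92 genes, 48 reached 10 TPM, 25 lay from 1 to 10 TPM and 19 lay under 1 TPM. The 15 that did not pass the filter were Kcna7, Kcna10, Kcne1, Kcne2, Kcne3, Kcnj1, Kcnj5, Kcnj15, Kcnk7, Kcnk15, Kcnk16, Kcnk18, Kcnmb3, Kcnn4 and Kcnv2. None of these exceeded 16 reads in a library, and Kcne1 and Kcnj1, which serve mainly heart and kidney, had 0 reads in all 9 libraries.

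**Figure D1:**
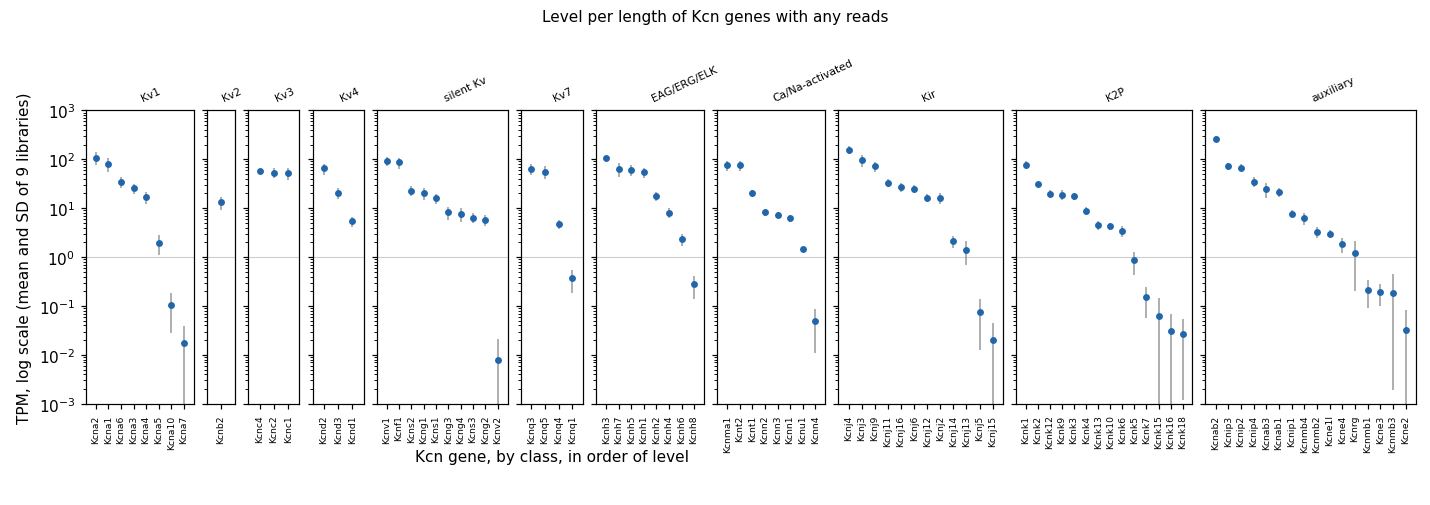
Level per length of Kcn genes with any reads, by class. Points are the mean and lines the SD over 9 libraries, in TPM on a log axis, and the grey line marks 1 TPM. Most classes span from above 10 TPM to below it, while Kcnc4, Kcnc2 and Kcnc1 lie close together between 51.8 and 56.9 TPM.

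The first comparison, Rag1-/- + vehicle against WT, asks how the PFC of Rag1-/- mice differs from that of WT mice. Potassium channel messages were mostly higher in vehicle-injected Rag1-/- mice. In edgeR's quasi-likelihood test, 16 of the 77 tested Kcn genes passed at an adjusted p under 0.05 (20.8%), against 16% of all tested genes. Of these, 14 rose (18.2%) and 2 fell (2.6%), against 6.28% of all genes that rose and 9.71% that fell. Over the 77 tested Kcn genes the median log2 fold change was 0.26, against -0.03 over all genes. Among those that rose were Kcna1 and Kcna4 (Kv1), Kcnc2 (Kv3), Kcnd2 and Kcnd3 (Kv4), Kcnf1 and Kcng3 (silent subunits), Kcnh1 (EAG), Kcnt1 (sodium-activated), Kcnj3 and Kcnj9 (Kir3) and the auxiliary subunits Kcnab1 and Kcnip4. Those that fell were Kcnt2 and Kcnj16.

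All 3 vehicle libraries lay above all 3 WT libraries in 26 of the 77 Kcn genes (33.8%), against 18.3% of all genes, and all below in 4 (5.19%), against 19.8%. Summed over the 92 genes, the level was 7487, 6688 and 6162 CPM in vehicle libraries, against 6007, 6039 and 5198 CPM in WT libraries. The groups did not overlap in this sum, and the lowest vehicle library, replicate 3, lay close to WT replicates 1 and 3.

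The number that passed depended on the libraries and the method. It was 0 without any one of vehicle replicates 1, 2 and 3 or WT replicate 1, where 27, 33, 35 and 30 Kcn genes stayed at an unadjusted p under 0.05, and it was 35 without WT replicate 3 and 12 without WT replicate 6. Without WT replicate 6 the calls of Kcna1, Kcnh1, Kcnt1, Kcnab1 and Kcnip4 were lost and Kcnk9 was added. DESeq2 called 29. A fit on the 6 libraries compared, or one that also adjusted for each library's reads outside exons, called 0, with 32 and 18 Kcn genes at an unadjusted p under 0.05. The share of all genes that passed in each of these fits is not given here, so these counts cannot be read against it.

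**Figure D2:**
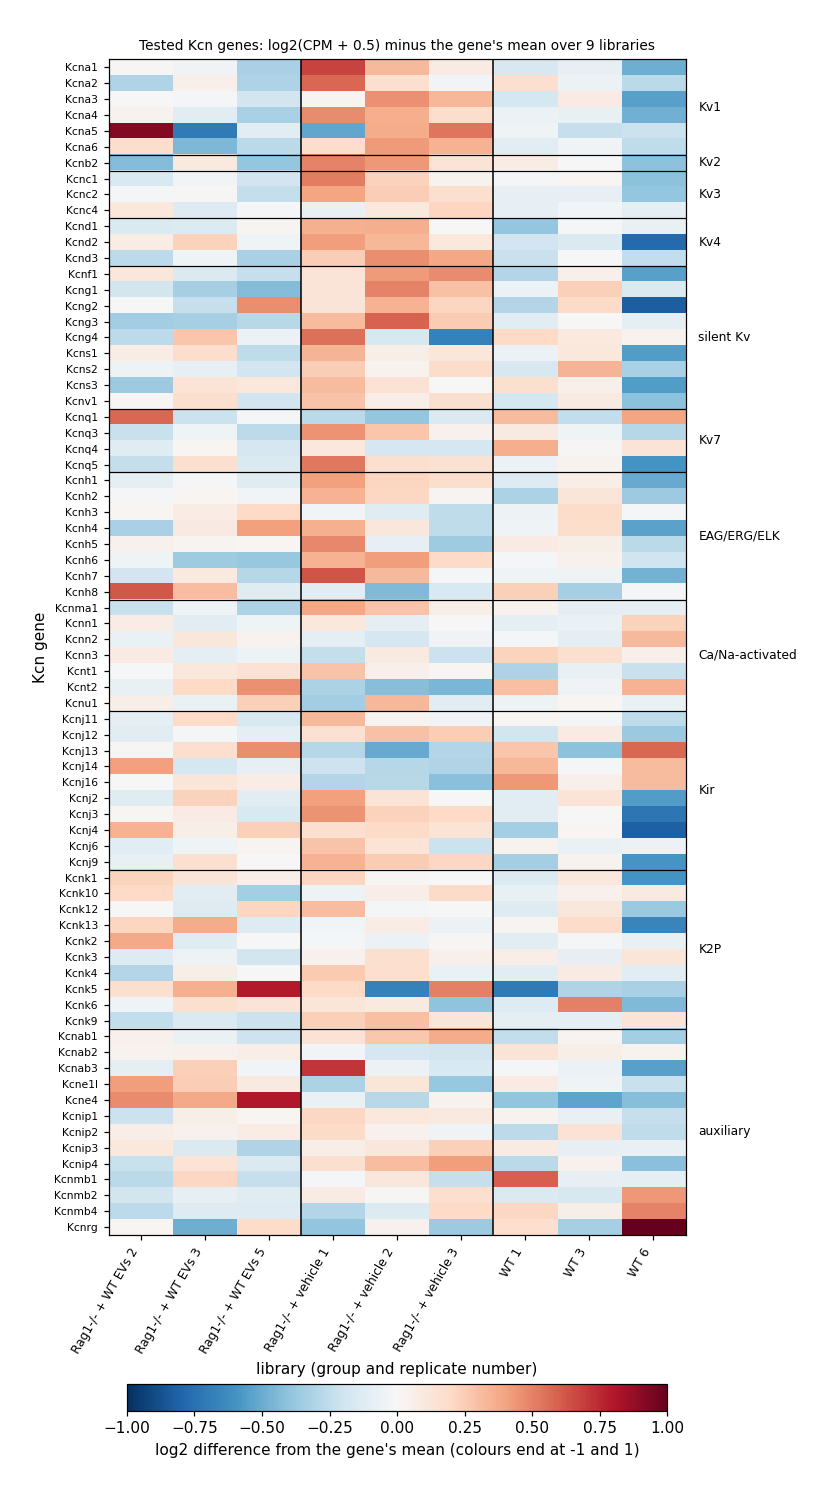
Tested Kcn genes (rows, by class) in each of the 9 libraries (columns), as log2(CPM + 0.5) minus the gene's mean, red for above and blue for below it. The Rag1-/- + vehicle columns are mostly red in the Kv1 to Kv4 and silent classes, WT 6 is the bluest column there, and Kcnt2, Kcnj16 and Kcnj14 run the other way.

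In the Kv1 family, whose channels open near threshold and limit firing, all 6 tested genes had a positive fold change in vehicle against WT. Of these, 2 passed as higher (33.3%, against 6.28% of all genes). The classes are small, so this and later class shares move far with a single gene. Kcna1 (Kv1.1), the axonal channel mutated in episodic ataxia, was at 196, 153 and 130 CPM in vehicle libraries and at 110, 116 and 87.2 CPM in WT libraries. Every vehicle library was above every WT library, with vehicle replicate 1 highest by a wide margin. The log2 fold change was 0.61 ± 0.16 (SE, adjusted p = 0.0319, edgeR), and without WT replicate 6 it was 0.50 (adjusted p = 0.0508, edgeR). Kcna4 (Kv1.4), the rapidly inactivating member, was at 36.2, 33.6 and 29.4 CPM in vehicle libraries, against 24.9, 24.6 and 18.4 CPM in WT libraries, again without overlap (log2 fold change 0.55 ± 0.14, adjusted p = 0.0312, edgeR). Kcna4 lies 5.64 Mb from Rag1, the targeted gene, on chromosome 2, and whether that bears on its level was not tested. Kcna2, the most abundant Kv1 gene, had a log2 fold change of 0.30 ± 0.17 that did not pass (adjusted p = 0.218, edgeR), its groups overlapping.

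Messages of proteins that assemble with Kv1 channels or hold them at the axon were largely higher in vehicle libraries too. Of the 9 genes of this kind listed, 6 rose (66.7%, against 6.28% of all genes), namely Cntnap2, Cntn1, Cntn2, Lgi1, Adam22 and Adam23, with log2 fold changes of 0.37 to 0.56. The scaffolds Dlg2 and Dlg4, which bind many membrane proteins of the synapse, fell (22.2% of the list, against 9.71% of all genes, with log2 fold changes of -0.48 and -0.37). The list was chosen with earlier results of these data known, so its shares are not independent of them. Kcnab1, a Kv1 beta subunit that confers fast inactivation, was at 64.6, 70.2 and 75.7 CPM in vehicle libraries, against 49.2, 59.3 and 45.9 CPM in WT libraries. The groups were apart by a small margin (log2 fold change 0.45 ± 0.11, adjusted p = 0.0309, edgeR, and 0.37 with adjusted p = 0.0501 without WT replicate 6). Kcnab2 was at 467, 422 and 417 CPM in vehicle libraries, against 522, 494 and 486 CPM in WT libraries. Its vehicle libraries were all the lower ones, but the difference did not pass (log2 fold change -0.20 ± 0.08, adjusted p = 0.104, edgeR).

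The Kv3 family gives the fast, high-threshold current that lets neurons fire at high rates. Kcnc2 (Kv3.2), found in many interneurons, was at 160, 144 and 136 CPM in vehicle libraries, against 115, 115 and 92.8 CPM in WT libraries. It did not overlap (log2 fold change 0.45 ± 0.11, adjusted p = 0.0301, edgeR). Kcnc1, the fast-spiking channel Kv3.1, had a log2 fold change of 0.40 ± 0.14 and did not pass (adjusted p = 0.0705, edgeR).

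Markers of interneurons were partly higher in the same libraries. Their 7 genes summed to 586.5 to 666.2 CPM in vehicle libraries, against 307.9 to 535.8 CPM in WT libraries. Only Sst passed of the 7 (14.3%, against 6.28% of all genes that rose). Pvalb, the marker of fast-spiking cells, had a log2 fold change of -0.24 that did not pass. Of 6 markers of excitatory neurons, 4 rose (66.7%, against 6.28% of all genes), among them Neurod6, Nrgn and Tbr1. Camk2a fell (16.7%, against 9.71%). The marker lists too were chosen with earlier results of these data known. The sum of these 6, of which Camk2a is the largest part, was lower in vehicle libraries (6396 to 6791 CPM) than in WT libraries (7615 to 7970 CPM). The part of either cell type in the Kcn values was not tested, and in tissue libraries more cells of a type and more RNA per cell cannot be told apart.

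The Kv4 family carries the dendritic A-type current. All 3 of its genes were higher in every vehicle than in every WT library (100%, against 18.3% of all genes). Kcnd2 (Kv4.2) was at 144, 135 and 115 CPM in vehicle libraries, against 94.1, 97 and 62.5 CPM in WT libraries. WT replicate 6 was far below the other WT libraries, and without it the log2 fold change of 0.64 ± 0.16 (adjusted p = 0.0299, edgeR) became 0.46 (adjusted p = 0.0252, edgeR). Kcnd3 (Kv4.3; ENSMUSG00000040896, chr3:105452330-105674002) was at 74, 86.3 and 81.9 CPM in vehicle libraries, against 53.5, 62.2 and 52.7 CPM in WT libraries. Here the groups were tight and clearly apart (log2 fold change 0.52 ± 0.10, adjusted p = 0.0214, edgeR). Kcnd1 did not pass (log2 fold change 0.42 ± 0.14, adjusted p = 0.0613, edgeR). Of the proteins that tune Kv4 channels, Kcnip4, a calcium-binding KChIP subunit, was at 45.1, 50.1 and 54.2 CPM in vehicle libraries, against 33.4, 41.6 and 30.1 CPM in WT libraries. Its groups did not overlap (log2 fold change 0.51 ± 0.14, adjusted p = 0.0341, edgeR), but the call was lost without WT replicate 6 (0.41, adjusted p = 0.0633, edgeR). Of the 4 tested KChIP genes Kcnip4 alone passed (25%, against 6.28% of all genes that rose). The more abundant Kcnip2 (67.7 against 34.6 TPM) did not pass and overlapped (log2 fold change 0.18 ± 0.11, adjusted p = 0.276, edgeR). The membrane-bound partner Dpp6 also rose (log2 fold change 0.51, adjusted p = 0.0452, edgeR, in the fit on all 9 libraries), while Dpp10 did not pass (0.28).

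Neither Kv2 gene passed, nor did any of the 5 tested Kv7 genes, which carry the M-current that acetylcholine suppresses. At an unadjusted p under 0.05 there were 1 Kv2 gene and 2 Kv7 genes, and DESeq2 called Kcnb2, Kcnq3 and Kcnq5 but limma-voom none of either family. Kcnb2 had a log2 fold change of 0.46 ± 0.17 and Kcnq3 one of 0.34 ± 0.13 (adjusted p = 0.0747 and 0.0863, edgeR). Of the silent subunits, which make no channel alone and alter Kv2 channels they join, 2 of 9 rose (22.2%, against 6.28% of all genes). Kcnf1 (Kv5.1) was at 145, 177 and 184 CPM in vehicle libraries, against 108, 137 and 90.5 CPM in WT libraries. The gap between vehicle replicate 1 and WT replicate 3 was small, and the log2 fold change was 0.60 ± 0.15 (adjusted p = 0.032, edgeR). Kcng3 (Kv6.3; ENSMUSG00000045053, chr17:83585957-83631895), with few reads, was at 11.1, 13.4 and 10.6 CPM in vehicle libraries, against 8.1, 8.79 and 8.18 CPM in WT libraries. The WT libraries were nearly equal and all lower (log2 fold change 0.48 ± 0.12, adjusted p = 0.0283, edgeR).

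Kcnh1, the EAG channel, was the 1 gene of its class to rise of 8 tested (12.5%, against 6.28% of all genes). It was at 170, 148 and 144 CPM in vehicle libraries, against 116, 134 and 89.8 CPM in WT libraries. The groups were separate but WT replicate 3 came near them (log2 fold change 0.44 ± 0.13, adjusted p = 0.0438, edgeR), and without WT replicate 6 the call was lost (0.30, adjusted p = 0.0701, edgeR). No K2P gene of 10 tested passed, while 1, the leak channel Kcnk9, had an unadjusted p under 0.05 and was called by DESeq2 but not by limma-voom.

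Among inward rectifiers, 2 rose and 1 fell of 10 tested (20% and 10%, against 6.28% and 9.71% of all genes). Kcnj3 (Kir3.1) and Kcnj9 (Kir3.3) are subunits of the channels that open when inhibitory receptors release G protein beta and gamma subunits. Kcnj9 was at 127, 119 and 115 CPM in vehicle libraries, against 78.7, 102 and 66.2 CPM in WT libraries, without overlap (log2 fold change 0.55 ± 0.14, adjusted p = 0.0312, edgeR). Kcnj3 was at 217, 187 and 183 CPM in vehicle libraries, against 148, 159 and 96.1 CPM in WT libraries. WT replicate 6 was far the lowest, and without it the log2 fold change of 0.54 ± 0.16 (adjusted p = 0.0454, edgeR) became 0.35 (adjusted p = 0.0495, edgeR). Gm26794 overlaps 31.1% of the exonic bases of Kcnj3, and reads were counted without strand. Their partner Kcnj6 (Kir3.2) had a log2 fold change of 0.12 ± 0.12 and did not pass (adjusted p = 0.497, edgeR).

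Kcnj16 (Kir5.1; ENSMUSG00000051497, chr11:110968033-111027968), which in astrocytes joins the Kir4.1 channel, fell. It was at 28, 28.3 and 25.6 CPM in vehicle libraries, against 46.6, 35.6 and 42.9 CPM in WT libraries. The vehicle libraries were nearly equal and all lower, and the log2 fold change was -0.61 ± 0.10 (adjusted p = 0.0174, edgeR). Markers of astrocytes moved the same way. Their 6 genes summed to 1353 to 1547 CPM in vehicle libraries, against 1876 to 2335 CPM in WT libraries. Of the 6, 4 fell, namely Aqp4, Aldh1l1, Slc1a3 and Aldoc (66.7%, against 9.71% of all genes). Their part in the Kcnj16 value was not tested.

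The sodium-activated channels went opposite ways. Kcnt1 (Slack) was at 75.8, 64.3 and 63 CPM in vehicle libraries, against 50, 58.9 and 53.2 CPM in WT libraries, apart by a few CPM (log2 fold change 0.32 ± 0.10, adjusted p = 0.0466, edgeR, and 0.31 with adjusted p = 0.078 without WT replicate 6). The Kcnt1 call held in 3 of 11 other fits and in 1 of 9 with a library left out, and with offsets for GC content and length its log2 fold change was 0.07 (adjusted p = 0.67, edgeR, in a range of 0.00967 to 0.67 over all alternatives). Kcnt2 (Slick; ENSMUSG00000052726, chr1:140246158-140612067) fell to 133, 123 and 120 CPM in vehicle libraries, against 204, 162 and 211 CPM in WT libraries. The vehicle libraries were close together and all lower (log2 fold change -0.62 ± 0.14, adjusted p = 0.0262, edgeR). The GC content of Kcnt2 was 36.6%, against a median of 52.2% over the tested Kcn genes. With offsets for GC content and length its log2 fold change turned to 0.04 (adjusted p = 0.875, edgeR, in a range of 0.000857 to 0.875 over all alternatives). That of Kcnj16 became -0.30 with the same offsets (adjusted p = 0.102, edgeR). These offsets raised the median of all genes by a little over 0.1 on the log2 scale, to 0.09.

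**Figure D3:**
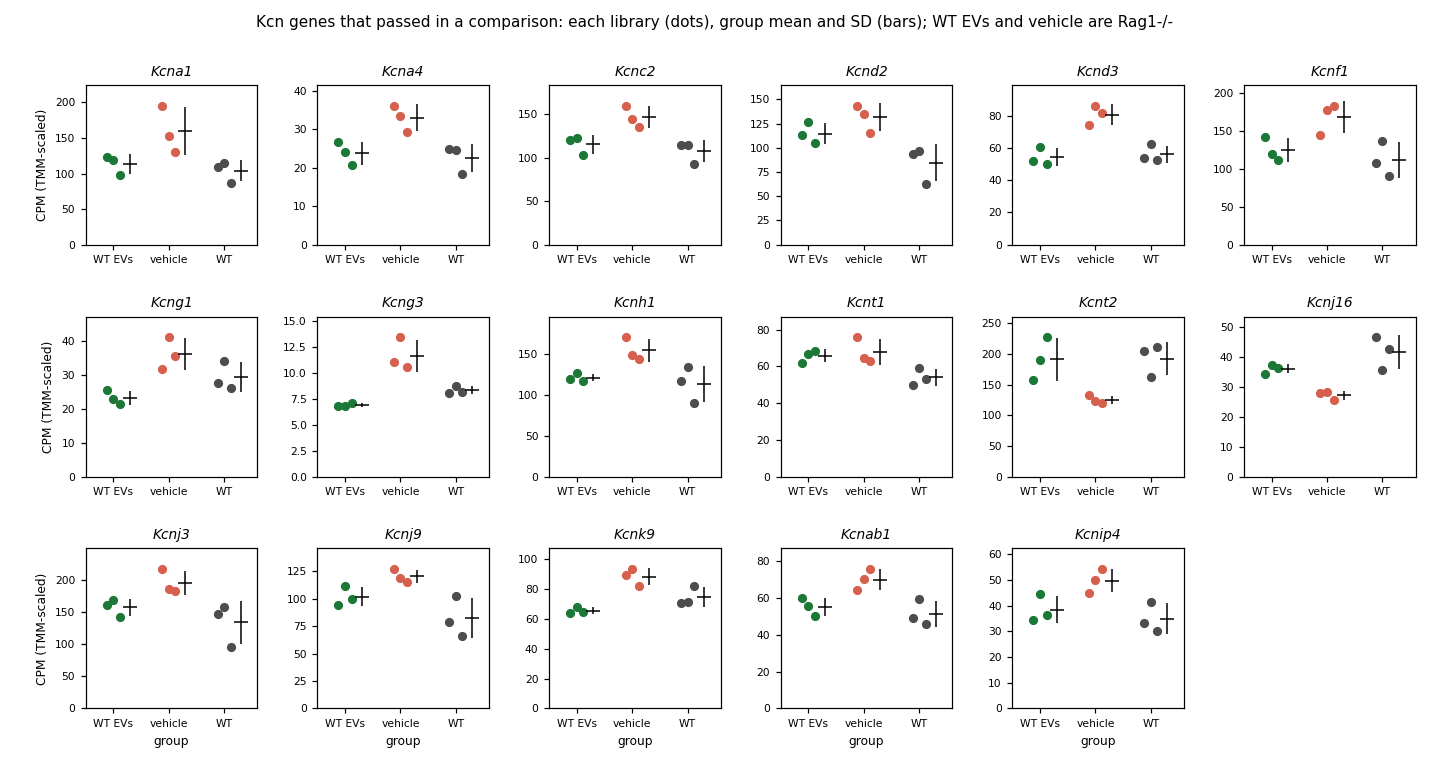
Level of Kcn genes that passed in a comparison, in CPM on axes that begin at 0, for Rag1-/- + WT EVs, Rag1-/- + vehicle and WT. Dots are the 3 libraries of a group and bars the mean ± SD. In Kcnd3 and Kcng3 the vehicle dots lie above both other groups, and in Kcnt2 and Kcnj16 below both.

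The second comparison, Rag1-/- + WT EVs against Rag1-/- + vehicle, asks what the vesicles changed. Potassium channel messages were mostly lower after vesicle injection. Of the 77 tested Kcn genes, 6 passed in edgeR's test (7.79%), against 3.42% of all tested genes. Of these, 5 fell (6.49%) and 1 rose (1.3%), against 1.24% of all genes that fell and 2.17% that rose. The median log2 fold change was -0.18, against 0.04 over all genes. Kcnd3, Kcng1, Kcng3 and Kcnk9 were among those that fell, and Kcnt2 rose. With DESeq2's size factors in edgeR, 5 fell and none rose. The vehicle libraries are the same as in the first comparison, so a chance high value in them raises the one and lowers the other, and the values of the 2 comparisons are not independent.

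All 3 vesicle libraries lay below all 3 vehicle libraries in 29 Kcn genes (37.7%), against 16.8% of all genes, and all above in 7 (9.09%), against 20.1%. Summed over the 92 genes, the level was 5649, 6077 and 5468 CPM in vesicle libraries, against 7487, 6688 and 6162 CPM in vehicle libraries. These sums did not overlap, although vesicle replicate 3 came within reach of vehicle replicate 3.

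This count too rested on single libraries. It was 0 without vesicle replicates 2 or 5, vehicle replicates 1, 2 or 3, or WT replicate 1, with 22 to 29 Kcn genes at an unadjusted p under 0.05, and 2 without vesicle replicate 3. It was 10 without WT replicate 3 and 25 without WT replicate 6, which belong to neither group and enter through the shared fit. DESeq2 called 25, of which 22 lower, and a fit on the 6 libraries compared called 28, of which 24 lower. With offsets for GC content and length it was 0, with 28 Kcn genes at an unadjusted p under 0.05, and 1 gene of all 17948 passed. For the other fits the share of all genes that passed is not given here, so their counts cannot be read against it.

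**Figure D4:**
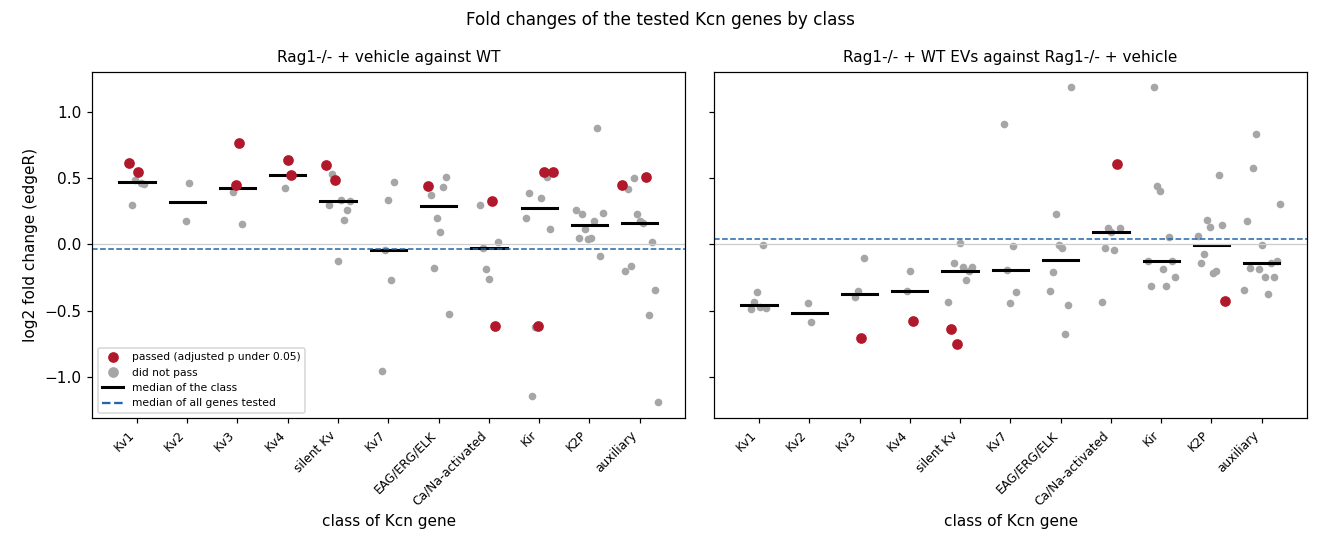
Log2 fold change of each tested Kcn gene by class, with genes that passed in red, class medians as black bars and the median of all genes as a dashed line. Medians of the Kv1 to Kv4 classes lie between 0.32 and 0.52 in vehicle against WT, and between -0.51 and -0.35 in vesicles against vehicle. In the latter, 2 of the 15 Kv1 to Kv4 genes passed as lower, against 1.24% of all genes.

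Kcng3 had the largest fall of those that passed. It was at 6.8, 6.86 and 7.14 CPM in vesicle libraries, against 11.1, 13.4 and 10.6 CPM in vehicle libraries. The vesicle libraries hardly differed among themselves and lay well below (log2 fold change -0.75 ± 0.12, adjusted p = 0.0242, edgeR). Kcng1 (Kv6.1; ENSMUSG00000074575, chr2:168260117-168281736), a second silent partner of Kv2, was at 25.3, 22.8 and 21.3 CPM in vesicle libraries, against 31.6, 40.9 and 35.4 CPM in vehicle libraries, also without overlap (log2 fold change -0.64 ± 0.13, adjusted p = 0.0332, edgeR). Kcnb2, a Kv2 pore gene, was at 46.3, 67.2 and 47.9 CPM in vesicle libraries, against 88.4, 85 and 68.8 CPM in vehicle libraries. Its vesicle libraries were all lower, vesicle replicate 3 only just, and the difference did not pass (log2 fold change -0.59 ± 0.17, adjusted p = 0.073, edgeR).

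Kcnd3 was at 52, 60.5 and 49.8 CPM in vesicle libraries, against 74, 86.3 and 81.9 CPM in vehicle libraries. The highest vesicle library stayed clearly under the lowest vehicle library (log2 fold change -0.58 ± 0.10, adjusted p = 0.0295, edgeR). Kcnd2 did not pass (log2 fold change -0.20 ± 0.16, adjusted p = 0.475, edgeR), and vesicle and vehicle libraries overlapped. Whether the responses of Kcnd2 and Kcnd3 differ was not tested.

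Kcnk9 (TASK-3; ENSMUSG00000036760, chr15:72501089-72546340) is a leak channel that is inhibited by acid and opened by some volatile anaesthetics. It was at 63.5, 68 and 64.8 CPM in vesicle libraries, against 89.1, 93.1 and 82 CPM in vehicle libraries. Both groups were tight and apart (log2 fold change -0.43 ± 0.09, adjusted p = 0.0344, edgeR). Against WT, vehicle had a log2 fold change of 0.24 ± 0.09 that did not pass (adjusted p = 0.0804, edgeR) but passed without WT replicate 6 (0.32, adjusted p = 0.0382, edgeR). The related acid-sensitive channel Kcnk3 was lower in every vesicle library, with a log2 fold change of -0.21 ± 0.09 that did not pass (adjusted p = 0.192, edgeR).

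Kcnt2 rose to 157, 190 and 227 CPM in vesicle libraries, against 133, 123 and 120 CPM in vehicle libraries. The vesicle libraries were all higher but spread widely (log2 fold change 0.61 ± 0.14, adjusted p = 0.0425, edgeR). With offsets for GC content and length the log2 fold change was 0.31 and did not pass (adjusted p = 0.307, edgeR, in a range of 0.00161 to 0.307 over all alternatives). Kcnj16 was at 34.5, 37.5 and 36.4 CPM in vesicle libraries, against 28, 28.3 and 25.6 CPM in vehicle libraries. Its vesicle libraries were all higher, but the difference did not pass (log2 fold change 0.40 ± 0.10, adjusted p = 0.0576, edgeR). Astrocyte markers summed to 2015 to 2148 CPM in vesicle libraries, against 1353 to 1547 CPM in vehicle libraries. Of the 6, 2 rose, namely Gfap and Aldoc (33.3%, against 2.17% of all genes). Their part in the Kcnt2 and Kcnj16 values was not tested.

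The Kv1 genes gave no call in edgeR's test on all 9 libraries, although 5 of the 6 had an unadjusted p under 0.05. Of the 6, 4 were lower in every vesicle than in every vehicle library (66.7%, against 16.8% of all genes). DESeq2 called Kcna1, Kcna2, Kcna4 and Kcna6, and limma-voom none. In edgeR, Kcna1, Kcna3, Kcna4 and Kcna6 were called in the fit on the 6 libraries compared, and Kcna1, Kcna4 and Kcna6 without WT replicate 6. Kcna1 was at 123, 120 and 98 CPM in vesicle libraries, against 196, 153 and 130 CPM in vehicle libraries, with a small gap between the groups (log2 fold change -0.49 ± 0.16, adjusted p = 0.0984, edgeR). Kcna4 had a log2 fold change of -0.47 ± 0.14 and Kcna6 one of -0.48 ± 0.14 (adjusted p = 0.0784 and 0.0838, edgeR). Of the exonic bases of Kcna6, 39.6% overlap Gm26673. Kcnma1, the calcium- and voltage-gated BK channel, was at 357, 403 and 335 CPM in vesicle libraries, against 543, 506 and 433 CPM in vehicle libraries. The groups did not overlap, and the difference came just short of the threshold (log2 fold change -0.44 ± 0.11, adjusted p = 0.052, edgeR).

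Of the 24 tested partner genes of these channels, 3 fell after vesicles (12.5%, against 1.24% of all genes) and none rose (against 2.17%). Lrrc55, a gamma subunit of BK channels, fell to 16.6, 15 and 11.8 CPM in vesicle libraries, against 22.5, 19.4 and 20.8 CPM in vehicle libraries (log2 fold change -0.53, adjusted p = 0.0454, edgeR). Akap5, an anchor that brings kinases and phosphatase to Kv7 channels, fell with a log2 fold change of -0.62 and Hcn3, a cation channel of the hyperpolarisation-activated family, with one of -0.67. All 3 vesicle libraries were below all 3 vehicle libraries for Lrrc55. In vehicle against WT, 10 partner genes rose (41.7%, against 6.28% of all genes) and 3 fell (12.5%, against 9.71%). Among them Lrrc55 and Akap5 rose, and Hcn2 fell. The partner lists were chosen with earlier results of these data known, so these shares are not independent of them. Markers of excitatory neurons changed after vesicles as well, where 3 fell (50%, against 1.24% of all genes), among them Neurod6 and Tbr1. Camk2a rose (16.7%, against 2.17%). Their sum was 7161 to 8214 CPM in vesicle libraries, against 6396 to 6791 CPM in vehicle libraries. Camk2a is the largest part of it, with 4685 to 5839 CPM in vesicle and 3567 to 4010 CPM in vehicle libraries. The sum thus follows Camk2a, while 5 of the 6 markers had a negative fold change. Of interneuron markers, Lhx6 fell (14.3%, against 1.24% of all genes). The part of these in the channel values was not tested. Partner and marker calls in every comparison are from the fit on all 9 libraries alone, and other fits of them are not given here.

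**Figure D5:**
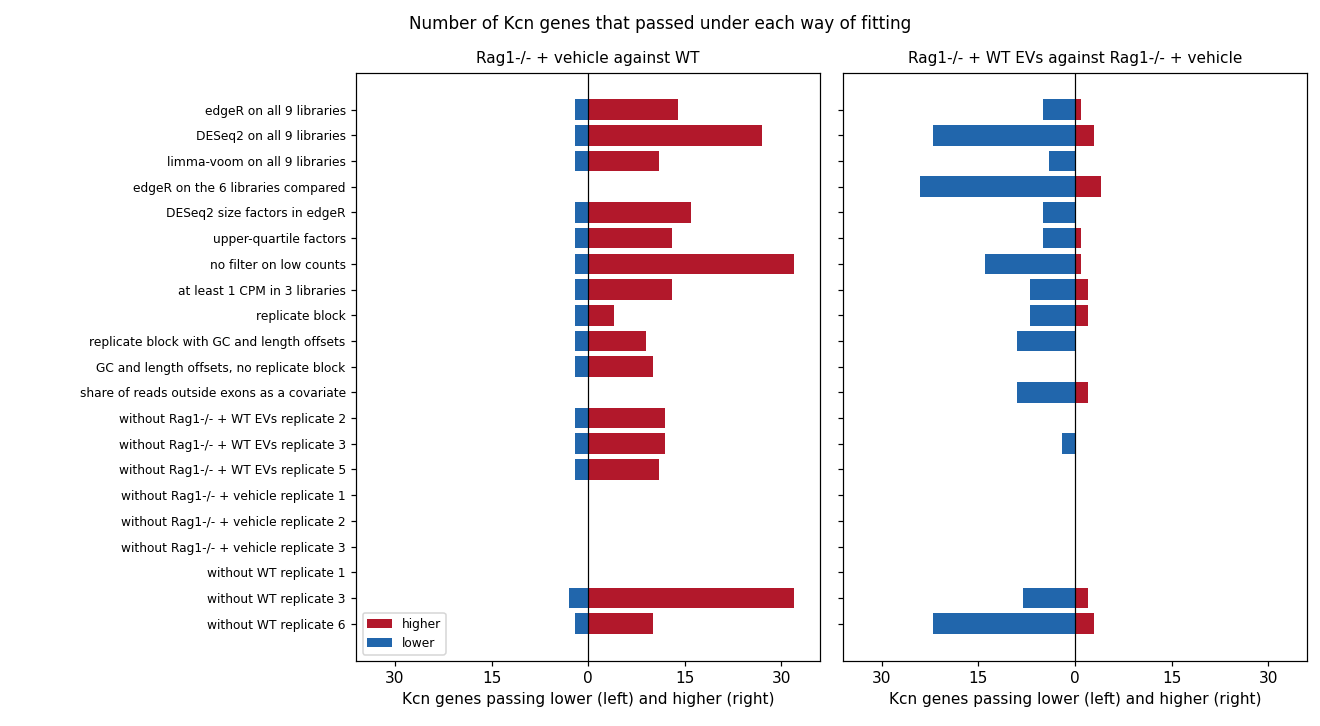
Number of Kcn genes that passed as higher (red, right) or lower (blue, left) under each way of fitting, for Rag1-/- + vehicle against WT and for Rag1-/- + WT EVs against Rag1-/- + vehicle. Counts run from 0 to 35 in the first and from 0 to 28 in the second, mostly higher in the first and mostly lower in the second.

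The third comparison, Rag1-/- + WT EVs against WT, asks how far vesicle-injected Rag1-/- mice lay from WT. No Kcn gene of 77 passed in edgeR's test, as against 0.0446% of all genes (0.039% higher and 0.00557% lower), and 10 had an unadjusted p under 0.05, 6 higher and 4 lower. DESeq2 called 1, Kcne4, and limma-voom 0. Without WT replicate 3, edgeR called 5, all higher, namely Kcne4, Kcnip2, Kcnj4, Kcnj9 and Kcnk1. The share of all genes that passed in these other fits is not given here. The median log2 fold change was 0.06. All vesicle libraries lay above all WT libraries in 6 genes (7.79%), against 8.72% of all genes, and below in 5 (6.49%), against 7.73%. Lack of a call does not show that the groups were alike.

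Kcne4, a single-pass auxiliary subunit that inhibits some Kv channels, was at 2.35, 2.17 and 3.07 CPM in vesicle libraries, 1.46, 1.2 and 1.6 CPM in vehicle libraries and 1.06, 0.921 and 1.03 CPM in WT libraries. The 3 groups did not overlap in any pair, with vesicle libraries highest and WT lowest, at low counts. Against WT the log2 fold change was 1.33 ± 0.26 in vesicle libraries (adjusted p = 0.0945, edgeR, and 0.0016 with DESeq2). Against vehicle it was 0.83 ± 0.25 in vesicle libraries (adjusted p = 0.0876, edgeR, and 0.0353 with DESeq2), and edgeR called it on the 6 libraries compared (adjusted p = 0.0233) and without WT replicate 6 (adjusted p = 0.0241). Meningeal fibroblast markers had the same order of group means, with sums of 93.3 to 136.8 CPM in vesicle libraries, 52.7 to 85.9 CPM in vehicle libraries and 31.5 to 67.1 CPM in WT libraries. The vehicle and WT sums overlapped. Of these 6 markers, 2 passed as higher against WT, namely Slc6a13 and Islr (33.3%, against 0.039% of all genes). Marker sums of choroid plexus, oligodendrocyte precursors and striatal neurons had this order of group means too. The part of any of these cell types in the Kcne4 value was not tested.

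Kcnk5, a K2P channel with 12 to 63 reads a library, had a log2 fold change of 1.40 ± 0.51 in vesicle against WT libraries that did not pass (adjusted p = 0.243, edgeR). Its vesicle libraries, at 1.06 to 1.92 CPM, all lay above the WT libraries, at 0.353 to 0.631 CPM. Kcnd2 was at 113, 126 and 104 CPM in vesicle libraries, against 94.1, 97 and 62.5 CPM in WT libraries, so that all vesicle libraries were higher (log2 fold change 0.44 ± 0.16, adjusted p = 0.24, edgeR). Kcnd3 had a log2 fold change of -0.05 ± 0.10 and Kcnt2 one of -0.01 ± 0.14 (adjusted p = 0.829 and 0.983, edgeR). For these the groups overlapped. Kcng3 and Kcng1 were lower in every vesicle library than in every WT library, with log2 fold changes of -0.27 ± 0.12 and -0.34 ± 0.13 that did not pass (adjusted p = 0.292 and 0.254, edgeR). Over the 77 Kcn genes, the mean was highest in vesicle libraries in 12, in vehicle libraries in 51 and in WT libraries in 14, while of all tested genes it was highest in 26.8%, 34.8% and 38.3%, in the same order of groups.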

How the data were processed

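PFC RNA was made into directional libraries and read in pairs of 75 bases. The authors converted reads with bcl2fastq 2.18.0.12, aligned them to GRCm38 with STAR 2.7.5c and counted them with HTSeq 0.11.1, per the labels, and by the study's methods without regard to strand. The deposited values are raw counts per Ensembl gene. HTSeq's summary lines stayed out of the tests. Reads outside exons are its lines without a feature, as a share of gene, featureless and ambiguous reads.

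Of the gene IDs, 98.19% matched GENCODE M21, which gave names, lengths and transcripts. Members and gene lists were chosen with earlier results of these data known. Kcn genes may be named, with full values for those that passed in a comparison and the leading gene of each class, apart from a few genes that are in the counts but not reported here. Channel partners and cell type markers came from written lists.

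Counts from all 9 libraries were fitted in edgeR 4.0.16 (R 4.3.3) with TMM factors, filterByExpr (minimum count 10, minimum total 15) and group as the only factor. The 2-sided quasi-likelihood test was adjusted by Benjamini-Hochberg over 17948 genes, with a threshold of 0.05. The SE is the log2 fold change divided by the root of F. Alternatives used DESeq2 1.42.0, limma-voom 3.58.1, other scalings, filters, covariates and left-out libraries. The fits were tested on simulated data. TPM was computed from counts and exonic length. Plots used matplotlib 3.10.9. Protein sequences were not used here.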

Additional observations from a re-analysis of the deposited data

How the results depend on the processing

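The main counts of Kcn genes that passed were 16 (vehicle against WT), 6 (vesicles against vehicle) and 0 (vesicles against WT). For vehicle against WT, DESeq2 gave 29, no filter on low counts 34, the replicate block 6, and the 6 libraries compared and the covariate for reads outside exons 0 each. For vesicles against vehicle, DESeq2 gave 25, the 6 libraries compared 28, no filter 15, the covariate 11 and offsets for GC content and length 0. For vesicles against WT, DESeq2 gave 1 and no filter 2. Leaving out each library in turn gave 0 to 35, 0 to 25 and 0 to 5. The cause of these differences was not tested. Nor are these counts set against the share of all genes that passed in the same fit.

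The Kcnt2 value in vehicle against WT reversed, to 0.0407, with GC and length offsets. Of 242 other fits of the 22 values of single Kcn genes that passed, 168 kept direction and call, 73 lost the call and 1 reversed. With a library left out, 80 of 198 kept the call and 118 lost it, none reversing.

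Groups share at most 2 replicate numbers. Same-numbered libraries deviated from their group means with correlations of -0.05 to 0.10, so the numbers are not shown to pair them. With the replicate block, vesicles against vehicle gave 9 calls and vesicles against WT 0.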

Other observations

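The 5 non-coding genes with Kcn names, which the rule leaves out, were looked at after their values were seen. Kcnq1ot1, a long nuclear RNA antisense to Kcnq1, was at 19.1, 24.3 and 50.4 CPM in vesicle libraries, 11.8, 15.6 and 14.8 CPM in vehicle libraries and 47.6, 22.8 and 376.6 CPM in WT libraries. WT replicate 6, the library with 30.1% of reads outside exons, was far above all others, and the vehicle libraries, with 6.54 to 6.9%, were the lowest. Kcnq1 itself, of which 2.96% of exonic bases overlap Kcnq1ot1, was at 0.239 to 0.377 CPM in vehicle libraries and 0.316 to 0.772 CPM in WT libraries. Kcnd3os, antisense to Kcnd3, was at 0.645, 0.673 and 0.881 CPM in vesicle libraries, 0.358, 0.425 and 0.683 CPM in vehicle libraries and 0.471, 0.658 and 1.39 CPM in WT libraries, so its groups overlapped. Kcnrg, a coding member, was at 2.03 CPM in WT replicate 6 and at 0.306 to 0.783 CPM in the other 8 libraries.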
